A study of Homo sapiens with 8 samples.

Results

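ATP1B1 and 6 other genes of the sodium and calcium pumps were examined in LP-1 cells after bromodomain inhibition. These 7 genes (ATP1B1, ATP1B2, ATP1B3, ATP2A2, ATP2A3, ATP2B1 and ATP2B4) were taken by gene symbol from a table of 63129 genes. All 7 were in the table, and 6 passed the filter of a mean of at least 1 RPKM (a read density corrected for gene length and sequencing depth) over the 8 libraries, as did 14732 genes in all. The genes were chosen with their response to both compounds known, so their changes are given as a description, without a test.

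LP-1 is an established human multiple myeloma line. RNA sequencing was carried out after 6 hr in 4 groups of 2 biological replicates: 2.5 µM SGC-CBP30, an inhibitor of the CBP and EP300 bromodomains, with its own DMSO libraries, and 250 nM CPI203, an inhibitor of the BET family bromodomains, with its own DMSO libraries. All libraries came from this 1 cell line, and the vehicle DMSO was the only agent in the controls. The doses differed. Each compound was set against its own pair of DMSO libraries, so no control library is shared, and the values with the compounds are given side by side.

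The sodium pump (Na+/K+-ATPase) moves sodium out of the cell and potassium in. It needs a catalytic alpha subunit and a beta subunit, which helps the alpha subunit fold and reach the plasma membrane, and ATP1B1, ATP1B2 and ATP1B3 encode alternative beta subunits. Calcium is removed from the cytosol by the SERCA pumps of the endoplasmic reticulum (ATP2A2, ATP2A3) and the PMCA pumps of the plasma membrane (ATP2B1, ATP2B4), and ATP2A3 is the SERCA gene known from blood cells. Plasma cells keep a large endoplasmic reticulum, where calcium-binding chaperones fold secreted protein.

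The estimated depth ranged from 26000000 to 50100000 reads per library. All 7 plasma cell markers examined were at or above 1 RPKM in each group, and all 11 markers of mature B, T and myeloid cells were below 1 RPKM, with PAX5 listed at 0 in every library. The summed RPKM of the 3 T cell markers was 0.0338 to 0.0890 in the SGC-CBP30 experiment and 0.830 to 1.12 in the CPI203 experiment, which followed the experiment and not the compound. In such bulk samples, fewer expressing cells and less RNA per cell cannot be told apart.

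ATP1B1 was higher with both compounds, and with CPI203 it had the largest difference of the 6 genes past the filter. In the SGC-CBP30 experiment its RPKM was 0.926 and 1.03 with DMSO and 2.06 and 3.05 with the compound. In the CPI203 experiment it was 0.748 and 0.983 with DMSO and 15.0 and 14.2 with CPI203. The treated libraries lay above their DMSO libraries in both experiments, and the CPI203 libraries were the highest of all 8. The mean was 0.977 ± 0.0719 with DMSO and 2.55 ± 0.701 with SGC-CBP30 (SD, n = 2), a ratio of 2.62. With CPI203 the mean was 14.6 ± 0.587 against 0.866 ± 0.166 RPKM with DMSO (SD, n = 2), a ratio of 16.9.

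On the log2(RPKM + 0.1) scale, which understates changes of low genes, ATP1B1 differed by 1.28 with SGC-CBP30 and 3.94 with CPI203. Over the 4 pairs of a treated and a DMSO library, these differences ran from 0.94 to 1.62 with SGC-CBP30 and from 3.72 to 4.16 with CPI203. The 2 SGC-CBP30 libraries therefore differed among themselves more than any other pair did for ATP1B1. The DMSO values rested on about 56 to 91 reads per library, the SGC-CBP30 values on about 269 and 372, and the CPI203 values on about 1020 and 1100, as estimated from the depth and the longest transcript. Since its DMSO libraries lay near 1 RPKM, ATP1B1 passed the filter on the mean through its treated libraries. ATP1B1 (ENSG00000143153) lies at 169074934 to 169101960 on chromosome 1 of hg19, where it overlaps the gene NME7 by 193 bases. NME7 differed by 0.56 with SGC-CBP30 and -0.55 with CPI203 on the same scale.

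ATP1B3 encodes the beta subunit with by far the highest level in these cells. Its RPKM was 124.5 and 136.5 with DMSO and 136.9 and 138.0 with SGC-CBP30, and 134.4 and 140.1 with DMSO and 148.6 and 139.8 with CPI203. The values with CPI203 overlapped those of the DMSO libraries, and those with SGC-CBP30 lay just above the higher DMSO value. The log2 differences were 0.08 and 0.07, and under median scaling the first became -0.00051. ATP1B3 (ENSG00000069849, chromosome 3, 141594965 to 141645356, hg19) shares 771 bases with the antisense gene ATP1B3-AS1, which had a mean of only 0.408 RPKM.

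ATP1B2, a beta subunit known from the nervous system, was at the limit of detection. In the SGC-CBP30 experiment it was listed at 0 in both DMSO libraries and at 0.00633 and 0 RPKM with the compound. In the CPI203 experiment it was at 0.00548 and 0 RPKM with DMSO and at 0.138 and 0.0213 with the compound. The CPI203 values stood for about 11 and 2 reads and the others for at most 1 read, so no fold is given. ATP1B2 (ENSG00000129244, chromosome 17, 7549944 to 7561086, hg19) did not pass the filter.

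**Figure D1:**
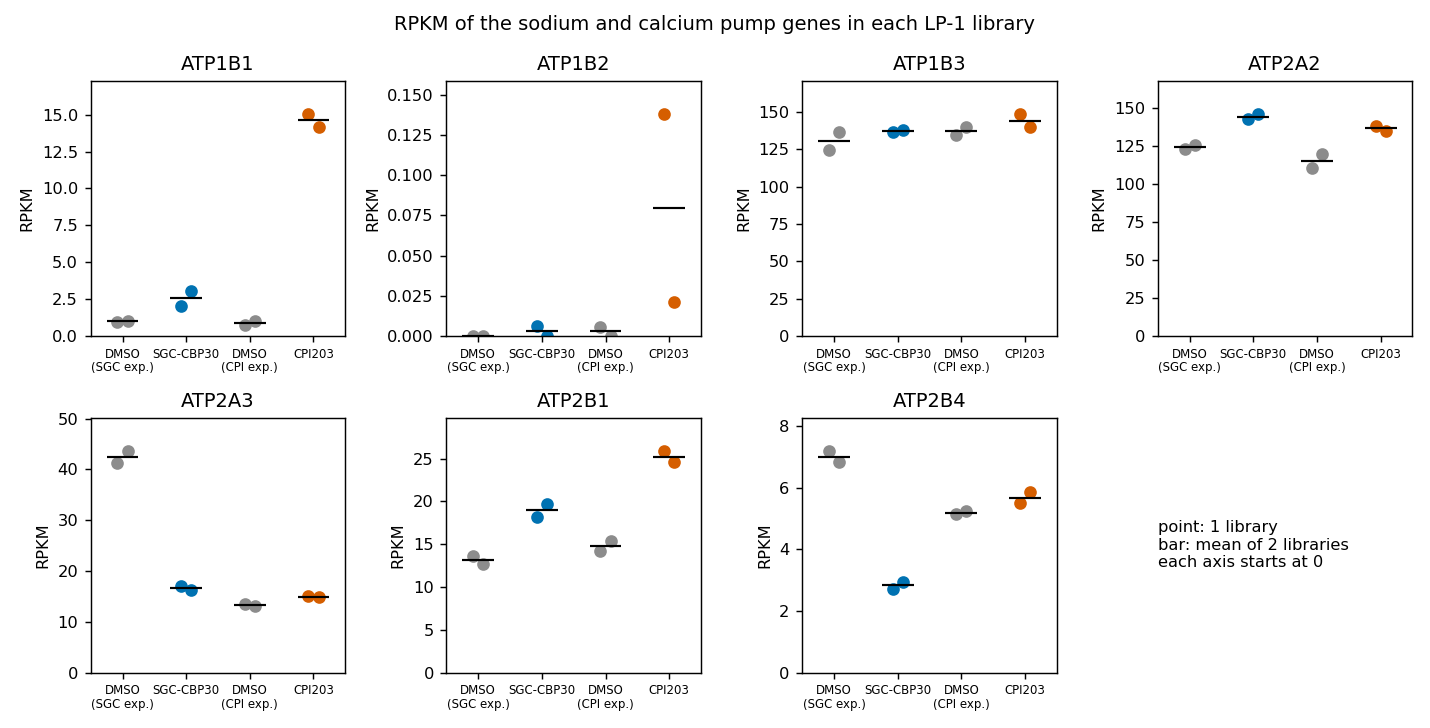
RPKM (vertical axes, linear and starting at 0) of the 7 pump genes in each of the 8 libraries, with a point per library and a bar at the mean of the 2 libraries of a group; DMSO is grey, SGC-CBP30 blue and CPI203 orange. ATP1B1 reached 15.0 and 14.2 RPKM with CPI203, and ATP2A3 stood at 41.3 and 43.6 RPKM in 1 pair of DMSO libraries.

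The share of ATP1B1 in the summed RPKM of the 4 beta subunit genes (with ATP1B4) shows how small it stayed beside ATP1B3. It was 0.742% ± 0.00631 with DMSO and 1.82% ± 0.482 with SGC-CBP30, and 0.625% ± 0.102 with DMSO and 9.20% ± 0.0308 with CPI203 (SD, n = 2). ATP1B3 held 90.7% of the sum even with CPI203. The summed beta subunit level was 138 ± 4.18 RPKM with DMSO and 159 ± 6.92 with CPI203 (SD, n = 2), a log2 difference of 0.20 without overlap of the libraries.

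The promoter sequences of the genes are shown because ATP1B1 and ATP1B3, beta subunits of the same pump, differed in response, beside ATP2B1, a calcium pump gene that was higher with both compounds. RefSeq (GRCh38.p14) gave windows for 6 of the 7 genes, 8 windows in all, and the 250 bases before each start were searched. Capitals mark GC boxes (GGGCGG) and CCAAT boxes (CCAAT), on either strand. For ATP1B1 (plus strand, chr1:169106600-169106629) only 30 bases are given, for ATP1B3 (plus strand, chr3:141876395-141876613) the 219 bases that lie outside its GENCODE exons, and for ATP2B1 (minus strand, chr12:89709367-89709616) the whole window of its first start.
ATP1B1: tccctccctCCGCCCCCGCCCcgccgccgc
ATP1B3: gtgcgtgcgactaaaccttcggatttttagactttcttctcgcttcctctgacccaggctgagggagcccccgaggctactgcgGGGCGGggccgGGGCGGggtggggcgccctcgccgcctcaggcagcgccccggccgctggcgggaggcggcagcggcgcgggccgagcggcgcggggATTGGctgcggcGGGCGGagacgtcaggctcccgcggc
ATP2B1: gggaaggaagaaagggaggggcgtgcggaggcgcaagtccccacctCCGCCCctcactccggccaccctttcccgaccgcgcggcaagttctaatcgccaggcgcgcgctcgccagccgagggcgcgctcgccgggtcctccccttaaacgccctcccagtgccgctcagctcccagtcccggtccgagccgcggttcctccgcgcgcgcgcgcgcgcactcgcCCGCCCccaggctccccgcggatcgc

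The ATP1B1 and ATP1B3 windows were much alike in composition, with 77.6% and 77.2% G or C, against a median of 58.0% over all 35116 windows. All 250 bases of the ATP1B1 window lay in GENCODE exons or untranslated regions, against 31 bases of the ATP1B3 window. The ATP1B1 letters are therefore annotated as transcribed, and the windows are not like stretches of promoter. The ATP2B4 window also lay wholly in such sequence. The ATP1B1 window held 2 GC boxes and 1 CCAAT box, the ATP1B3 window 4 GC boxes and 1 CCAAT box, and the ATP2B1 window shown 2 GC boxes and no CCAAT box. The CCAAT box of ATP1B1 and 1 GC box of ATP1B3 lie in parts of the windows that are not printed. The ATP2B4 window had 55.6% G or C and 1 GC box. Of all windows, 42.6% held a GC box and 32% a CCAAT box. None of the 8 windows held an E box (CACGTG, in 6.34% of all windows) or a TATA box (TATAAA, in 10.7%). These matches are a description of the letters and say nothing of binding.

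ATP2A3, the SERCA gene of blood cells, was lower with SGC-CBP30 and little different with CPI203. Its RPKM was 41.3 and 43.6 with DMSO and 17.1 and 16.3 with SGC-CBP30, against 13.6 and 13.2 with DMSO and 15.0 and 14.9 with CPI203. The DMSO pair of SGC-CBP30 stood apart from all 6 other libraries, and the treated pair lay just above the 4 libraries of the CPI203 experiment. The mean was 42.5 ± 1.67 with DMSO and 16.7 ± 0.565 RPKM with SGC-CBP30 (SD, n = 2), a log2 difference of -1.34, and 13.4 ± 0.266 and 15.0 ± 0.0941 RPKM in the CPI203 experiment (SD, n = 2), a log2 difference of 0.16.

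The DMSO pairs differed in ATP2A3 by more than SGC-CBP30 and its own DMSO did. Its mean with DMSO was 3.17 times as high in the SGC-CBP30 experiment as in the CPI203 experiment, a log2 difference of 1.66. Of the genes tested, 8.59% were at least 1.5-fold apart between the DMSO pairs and 1.03% were at least as far apart as ATP2A3. With all 4 DMSO libraries taken as controls, the log2 difference of ATP2A3 was -0.51 with SGC-CBP30 and turned to -0.67 with CPI203. The summed T cell markers, at most 1.12 RPKM in any library, were higher in the CPI203 experiment than in the SGC-CBP30 experiment. Neither their relation to the ATP2A3 levels nor the part of the experiment in these levels was tested. ATP2A3 (ENSG00000074370) lies at 3827168 to 3867736 on chromosome 17 of hg19.

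ATP2A2, the SERCA gene that most cell types use, was slightly higher with both compounds. Its RPKM was 122.9 and 125.4 with DMSO and 142.8 and 145.9 with SGC-CBP30, and 110.8 and 119.6 with DMSO and 138.4 and 134.7 with CPI203. The treated libraries lay above their DMSO libraries in both experiments, with log2 differences of 0.22 and 0.25. ATP2A2 (ENSG00000174437) is at 110718560 to 110788898 on chromosome 12 of hg19.

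Within the SERCA family (ATP2A1, ATP2A2, ATP2A3), the ATP2A3 share of the summed RPKM was 25.2% ± 0.456 with DMSO and 10.2% ± 0.449 with SGC-CBP30, and 10.3% ± 0.686 with DMSO and 9.82% ± 0.0865 with CPI203 (SD, n = 2). The summed SERCA level was 169 ± 3.58 and 163 ± 1.64 RPKM in the SGC-CBP30 experiment and 130 ± 6.06 and 153 ± 2.30 RPKM in the CPI203 experiment (DMSO and treated, SD, n = 2). In the SGC-CBP30 experiment the higher ATP2A2 and the lower ATP2A3 nearly cancelled in the sum, which was still lower without overlap of the libraries.

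With SGC-CBP30 the PMCA pumps also split, with ATP2B1 higher and ATP2B4 lower, while with CPI203 neither was lower. ATP2B1, the PMCA gene with the higher level here, had 13.6 and 12.7 RPKM with DMSO and 18.2 and 19.7 with SGC-CBP30, and 14.2 and 15.4 with DMSO and 25.9 and 24.5 with CPI203. Each treated library lay above each DMSO library of either experiment, with log2 differences of 0.52 (0.42 to 0.63 over the pairs of libraries) and 0.76 (0.67 to 0.86). ATP2B1 (ENSG00000070961) is at 89981827 to 90103077 on chromosome 12 of hg19.

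ATP2B4 had 7.20 and 6.83 RPKM with DMSO and 2.73 and 2.93 with SGC-CBP30, and 5.14 and 5.25 with DMSO and 5.50 and 5.87 with CPI203. The SGC-CBP30 libraries were the lowest of all 8, also below the DMSO libraries of the other experiment. The log2 difference was -1.28 with SGC-CBP30 (-1.37 to -1.19 over the pairs of libraries) and 0.13 with CPI203. The DMSO means differed by a ratio of 1.35 between the experiments, and with all 4 DMSO libraries as controls the differences were -1.07 with SGC-CBP30 and -0.086 with CPI203. ATP2B4 (ENSG00000058668, chromosome 1, 203595688 to 203713209, hg19) shares 793 bases with RP11-90O23.1, which differed by 0.03 and -0.02 with the compounds.

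Within the PMCA family, the ATP2B4 share was 34.8% ± 0.212 with DMSO and 13.0% ± 0.0858 with SGC-CBP30, and 26.0% ± 0.843 with DMSO and 18.4% ± 1.26 with CPI203 (SD, n = 2). The ATP2B4 share was thus lower with both compounds, through a lower ATP2B4 and a higher ATP2B1 in the SGC-CBP30 experiment and through the higher ATP2B1 with CPI203, where ATP2B4 itself was slightly higher. ATP2B2 was listed at 0 in every library. The summed PMCA level was 20.0 ± 0.927 with DMSO and 30.9 ± 0.680 RPKM with CPI203 (SD, n = 2), a ratio of 1.54, and 20.2 ± 0.860 and 21.8 ± 1.23 RPKM in the SGC-CBP30 experiment.

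**Figure D2:**
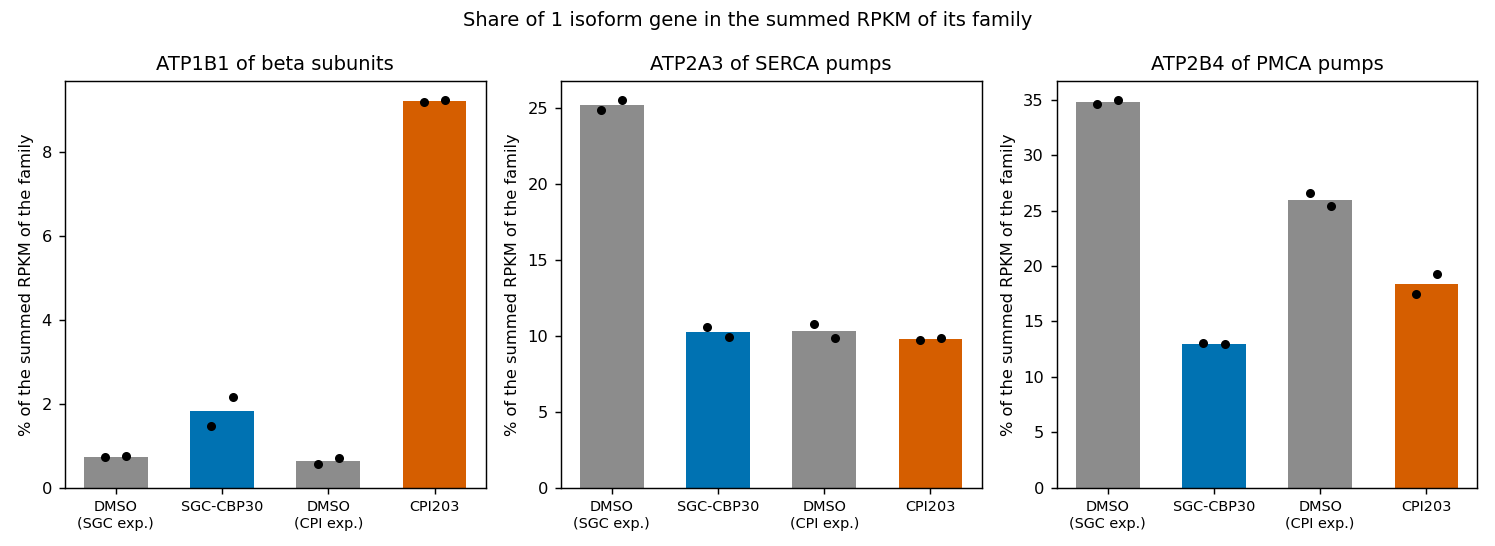
Share (vertical axes, percent of the summed RPKM of the family, starting at 0) of ATP1B1 among the beta subunits, ATP2A3 among the SERCA pumps and ATP2B4 among the PMCA pumps, with bars at the group means and a point per library. ATP1B1 stood at 9.20% with CPI203, and ATP2A3 stood at 25.2% with DMSO in the SGC-CBP30 experiment and near 10% in the other groups.

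Of the 6 genes past the filter, 1 was at least 1.5-fold higher and 2 at least 1.5-fold lower without overlap of the libraries with SGC-CBP30, where 3.79% and 4.03% of all 14732 genes were. With CPI203, 2 were at least 1.5-fold higher and 0 lower, where 13.6% and 14.6% of all genes were. At any size of change, 4 lay above and 2 below all DMSO libraries with SGC-CBP30, beside 45.9% and 27.2% of all genes, and 5 lay above and 0 below with CPI203, beside 39.2% and 41.7% of all genes. Since the genes were chosen on these changes, nothing is read from the counts. The median log2 difference of the 6 genes was 0.15 (SGC-CBP30) and 0.20 (CPI203), and that of all genes tested was 0.07 and -0.01.

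**Figure D3:**
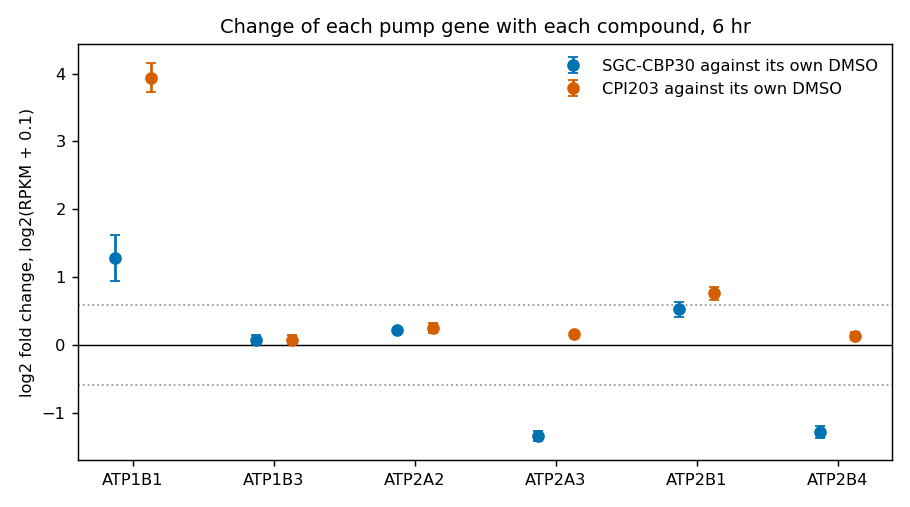
Log2 difference from the DMSO libraries of the same experiment (vertical axis, log2(RPKM + 0.1)) for the 6 genes past the filter, with SGC-CBP30 in blue and CPI203 in orange; points are differences of group means, bars run from the lowest to the highest of the 4 pairs of libraries, and dotted lines mark 1.5-fold. ATP1B1 was higher with both compounds (1.28 and 3.94), and ATP2A3 and ATP2B4 were lower with SGC-CBP30 (-1.34 and -1.28).

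Over the 8 libraries, the gene with the profile most like ATP1B1 was HIST1H2BC, a gene of histone H2B. The root mean square difference between its centred log2 profile and that of ATP1B1 was 0.234, with Pearson's r of 0.995, as a description over 8 libraries in 4 groups. HIST1H2BC stood at 9.59 and 8.63 RPKM with DMSO, 20.1 and 21.4 with SGC-CBP30, 8.57 and 8.83 with DMSO in the CPI203 experiment, and 96.6 and 99.5 with CPI203. Other genes with a similar profile were SERTAD1, a transcriptional co-regulator (0.360), and the histone genes HIST1H3D (0.391) and HIST1H2BJ (0.393). These genes were picked for this profile over the same 8 libraries, so the pattern they share with ATP1B1 was set by the choice. The histone genes have close copies, between which reads can be divided wrongly, so their levels are uncertain.

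**Figure D4:**
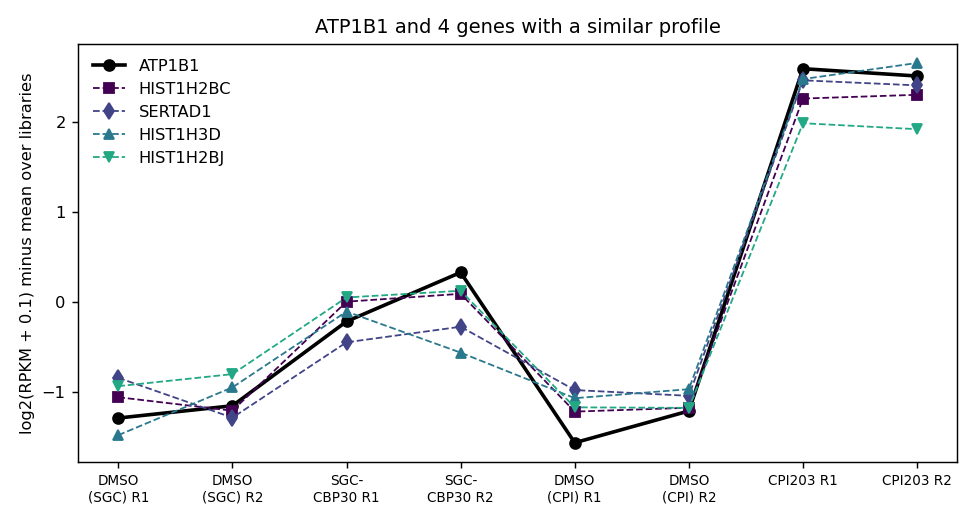
Centred log2(RPKM + 0.1) (vertical axis, each gene minus its mean over the 8 libraries) of ATP1B1 and 4 genes with a similar profile, by library (R1 and R2 are replicates; lines only join the points of a gene). All 5 genes were highest with CPI203 and lay between that level and their own DMSO level with SGC-CBP30, a pattern set by the choice of the genes.

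The other genes of sodium and calcium transport were read from 7 lists of 119 genes, of which 71 passed the filter. A gene was called at an adjusted p under 0.05 (limma with Benjamini-Hochberg adjustment over 14732 genes) where it also changed by 1.5-fold or more. With SGC-CBP30, 3 rose and 9 fell, 16.9% of the 71, where 7.26% of all genes tested were called (3.47% higher and 3.79% lower). With CPI203, 11 rose and 7 fell, 25.4%, where 27.8% of all genes were called (13.4% higher and 14.4% lower). The median log2 change over the 71 genes was -0.02 and 0.09. The counts by list that follow are to be read beside the shares of all genes given here, and no list was tested as a set. Of the 12 genes called with SGC-CBP30, 9 had a level in the DMSO pair of CPI203 that was nearer to the SGC-CBP30 level than to that of their own DMSO pair, and 2 (ATP8B2 and NUCB2) stayed called when all 4 DMSO libraries were used as controls. Under median scaling 10 genes were called with SGC-CBP30 and 10% of them were higher.

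Of 19 other sodium pump subunits and partners listed, 3 passed the filter, of which 2 fell with SGC-CBP30 and none was called with CPI203. FXYD5, a small membrane protein that modulates the pump, fell by 0.99 ± 0.20 on the log2 scale (SE; limma adjusted p = 0.0046), from 3.73 ± 0.599 to 1.83 ± 0.150 RPKM (SD, n = 2), while its level was 1.44 ± 0.394 RPKM with DMSO in the CPI203 experiment.

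None of the 5 further calcium pump genes and calmodulins tested was called with either compound. CALM3, which encodes calmodulin, the calcium sensor that activates PMCA pumps, had a log2 difference of -0.38 with SGC-CBP30 and 0.21 with CPI203. CALM2, which encodes the same protein, had 0.04 and -0.03. ATP2C1, the calcium and manganese pump of the Golgi, had -0.13 and 0.28. The difference between the compounds passed an adjusted p of 0.05 in CALM3 and ATP2C1 (limma), as in 50.3% of all genes tested. The CALM3 level was 114 RPKM with DMSO and 87.5 with SGC-CBP30, and 83.4 with DMSO and 96.3 with CPI203. Its DMSO pairs thus stood further apart than its treated pairs.

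Of the 13 other P-type ATPases, 2 fell with SGC-CBP30, and 2 rose and 1 fell with CPI203. ATP8B2, a phospholipid flippase, fell with both compounds, by 0.80 ± 0.04 with SGC-CBP30 and 0.93 ± 0.04 with CPI203 on the log2 scale (SE; limma adjusted p = 2.06e-06 and 1.16e-07). In the CPI203 experiment it went from 88.1 ± 1.94 to 46.3 ± 0.705 RPKM (SD, n = 2). ATP8B3 fell by 0.85 with SGC-CBP30. The flippase genes ATP10D and ATP11B rose with CPI203, by 1.00 and 0.88.

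Among 19 genes of calcium release and entry, 2 fell with SGC-CBP30, and 2 rose and 3 fell with CPI203. The genes that fell with SGC-CBP30 were the ATP-gated channels P2RX7 (-1.08 ± 0.08, SE) and P2RX4 (-0.65 ± 0.06). P2RX7 went from 12.7 ± 0.411 to 5.96 ± 0.388 RPKM (SD, n = 2), and its DMSO level in the CPI203 experiment was 7.79 ± 0.668. With CPI203, ORAI2 fell by 1.21 ± 0.06, the ATP-gated channel P2RX5 by 1.05 ± 0.06 and the lysosomal channel TPCN1 by 0.68 ± 0.06. ORAI1, the pore of the store-operated channel of the plasma membrane, rose by 0.66 with CPI203 (limma adjusted p = 0.000122). That call was lost with all 4 DMSO libraries as controls (0.44) and without DMSO replicate 2 of the CPI203 experiment (0.51). The ORAI1 level was 12.0 RPKM with DMSO and 18.9 with CPI203, and 16.2 with DMSO in the SGC-CBP30 experiment. TRPC1 rose by 0.61 with CPI203 and was not called without DMSO replicate 2 of that experiment (0.46) or without CPI203 replicate 2 (0.57). STIM1, which senses calcium in the endoplasmic reticulum and opens ORAI1, had -0.42 and 0.23 and was not called. The difference between the compounds passed the test in STIM1 (limma adjusted p = 1.22e-05), as in 50.3% of all genes tested. The STIM1 level with DMSO was 70.8 RPKM in the SGC-CBP30 experiment and 60.4 in the CPI203 experiment. Of the inositol trisphosphate receptors, ITPR3 had -0.29 and -0.46, ITPR2 -0.04 and 0.22, and ITPR1 did not pass the filter.

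In the mitochondrial list, 2 of 11 genes rose and 1 fell with each compound. MCU, the pore of the mitochondrial calcium uniporter, rose with both, by 0.59 ± 0.06 with SGC-CBP30 and 1.04 ± 0.06 with CPI203 (SE; limma adjusted p = 0.000109 and 4.49e-07). Its level was 9.03 ± 0.0925 and 13.6 ± 0.414 RPKM in the SGC-CBP30 experiment and 10.6 ± 0.491 and 21.9 ± 0.214 RPKM in the CPI203 experiment (SD, n = 2). SLC24A6, the mitochondrial sodium and calcium exchanger, rose by 0.60 with SGC-CBP30 and 1.30 with CPI203. The SGC-CBP30 changes of MCU and SLC24A6 lay at the 1.5-fold limit, and neither was called without DMSO replicate 2 (0.58 and 0.58) or SGC-CBP30 replicate 1 (0.56 and 0.55), nor under median scaling. CCDC109B, the dominant-negative pore subunit MCUB, fell by 0.79 with SGC-CBP30. LETM1, a protein of the inner mitochondrial membrane, fell by 1.73 ± 0.06 with CPI203, from 61.1 ± 2.97 to 18.4 ± 1.30 RPKM.

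The sodium exchange list had 1 of 11 genes higher with SGC-CBP30 and 5 higher with CPI203, and none was called lower. Of all genes tested, 3.47% were called higher and 3.79% lower with SGC-CBP30, and 13.4% and 14.4% with CPI203. The list was chosen with earlier results of these data known, so nothing is read from its counts. Among the genes that rose with CPI203 were some that are not sodium exchangers. SLC12A4, a carrier of potassium with chloride, rose by 1.17 ± 0.09 on the log2 scale (SE; limma adjusted p = 2.19e-06), from 8.20 ± 0.512 to 18.5 ± 0.0356 RPKM (SD, n = 2). SLC12A2, which carries sodium, potassium and chloride, rose by 1.03 ± 0.10 (SE; limma adjusted p = 1.01e-05), from 7.15 ± 0.222 to 14.7 ± 0.769 RPKM. WNK1, a kinase that regulates such carriers, rose by 0.76. WNK1 was not called without DMSO replicate 1 of the CPI203 experiment (0.53). SLC9A9, an exchanger of endosomes, rose by 0.71 with SGC-CBP30. SLC8A1, the sodium and calcium exchanger of the plasma membrane, did not pass the filter.

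Of 9 calcium-binding proteins of the secretory pathway, 2 fell with each compound. RCN3, a calcium-binding protein of the endoplasmic reticulum, fell with both (-0.82 and -0.71), NUCB2 fell with SGC-CBP30 (-0.70) and RCN1 with CPI203 (-0.89). CALR, which encodes calreticulin, the main calcium store protein, had -0.07 and 0.06 and was not called.

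Over the 7 lists, 4 genes were called with both compounds in the same direction: ATP8B2, MCU, SLC24A6 and RCN3. Only ATP8B2 among them stayed called with SGC-CBP30 when all 4 DMSO libraries were used as controls. RCN3 stood at 10.2 RPKM with DMSO and 5.76 with SGC-CBP30, and at 6.16 with DMSO in the CPI203 experiment. The share of all genes called with both compounds was not counted, so nothing is read from this number. The change differed between the compounds at an adjusted p under 0.05 in 39 of the 71 genes (limma), where 50.3% of all genes tested did.

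**Figure D5:**
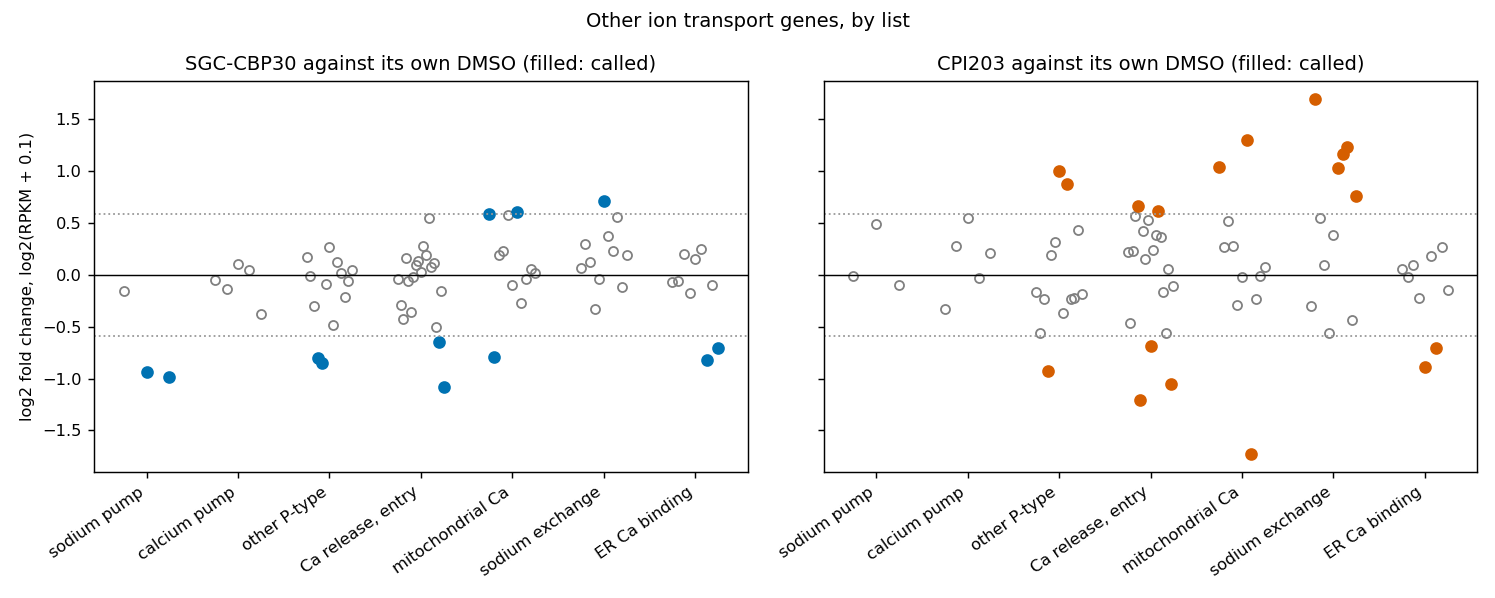
Log2 change from the DMSO libraries of the same experiment (vertical axis, log2(RPKM + 0.1)) of the 71 other ion transport genes past the filter, by list, with SGC-CBP30 on the left and CPI203 on the right; filled points were called and dotted lines mark 1.5-fold. With SGC-CBP30, 3 genes were called higher and 9 lower (10% of 10 higher under median scaling), and with CPI203 11 higher and 7 lower.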

How the data were processed

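RNA sequencing of LP-1 cells gave 8 libraries in 4 groups of 2. The deposited values were RPKM for every gene, computed for the authors by a sequencing provider, and the submitters' processing notes name TopHat 1.4.1, Cufflinks and hg19. The deposited annotation (another file) gave symbols and positions. The annotation release and the strand setting are not given in the sources used here, so reads of overlapping genes cannot be told apart. The table holds 24 further columns of other libraries, which were not used. Each DMSO pair was matched to the compound whose libraries carry the same style of name in the labels.

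Genes with a missing value (27) were dropped. The 14732 genes whose mean reached 1 RPKM were tested, unscaled, on log2(RPKM + 0.1). The 4 group means were fitted to all 8 libraries in limma 3.58.1 (R 4.3.3; eBayes with trend), with Benjamini-Hochberg adjustment over all genes tested, and was tested on simulated data. Python 3.11.15, pandas 2.3.3, numpy 2.4.6 and matplotlib 3.10.9 were used for the descriptions. Without counts, no count test was made. An exact two-sided permutation test of 2 libraries against 2 cannot give a p below 0.333.

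Depth was estimated from low values (up to 0.5 RPKM) of genes with 1 exon of 800 bases or more: 58.7% to 71.4% of these were whole numbers of reads within 0.1 read. The depth of each library was chosen by this same share, so the share is no separate check of the depth or of the read numbers. Above 10 RPKM, the SD of the log2 difference between replicates was 0.0909 to 0.115. Promoter windows came from RefSeq (GRCh38.p14) and exons from GENCODE release 29.

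The genes examined and the lists were chosen with earlier results of these data known. Named were all 7 genes, every listed gene called with either compound (values for the 4 largest changes per list), a fixed set of pump partners, and the 5 genes with the profile nearest to ATP1B1, some of which are not reported here. The paper describes the DMSO controls of its replicates as paired. Same-numbered libraries did not deviate together (correlation -0.17 with SGC-CBP30 and -0.04 with CPI203 over 8298 genes), and the main fit did not use the replicate numbers as pairs. With 2 libraries per group, this correlation cannot show that the libraries were unpaired.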

Additional observations from a re-analysis of the deposited data

How the results depend on the processing

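Depth limits ATP1B2 and the DMSO levels of ATP1B1, and 2 libraries per group limit every comparison. With SGC-CBP30, 1070 genes were called, against 667 with a pseudocount of 1, 505 with a minimum mean of 5 RPKM and 516 with all 4 DMSO libraries as controls, and of the 12 ion transport genes 7 and 2 were called under the last pair of settings. With CPI203, 4095 genes were called, and 2590 with a minimum of 5 RPKM. Of the calls with SGC-CBP30, 47.8% were higher, and 34.8% with a pseudocount of 1, 36.2% with a minimum of 5 RPKM, and 32.4% under median scaling and under quantile normalization. With a pseudocount of 1, ATP1B1 differed by 0.83 and 3.07. The difference turned for ATP1B3 with SGC-CBP30 under median scaling (-0.00051) and, with all 4 DMSO libraries, for ATP2A3 (-0.67) and ATP2B4 (-0.086) with CPI203. The DMSO mean of the SGC-CBP30 experiment was above that of the CPI203 experiment for ATP2A3 (42.5 against 13.4 RPKM) and ATP2B4 (7.01 against 5.19). Pooling the DMSO libraries therefore raised the control level for CPI203 in both genes. Why the DMSO pairs differed was not tested. The shift of the median gene under median or quantile scaling was at most 0.08 in size.

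Without 1 library at a time, ATP1B1 ranged from 1.01 to 1.55 with SGC-CBP30 and 3.76 to 4.12 with CPI203, ATP2A3 from -1.38 to -1.30 and ATP2B4 from -1.33 to -1.23 with SGC-CBP30, and ATP2B1 from 0.71 to 0.82 with CPI203. Called genes ranged from 902 to 1079 with SGC-CBP30 and from 4033 to 4160 with CPI203. A lone library was then assumed to vary like the other groups. With the replicate number as a block, 1057 genes were called with SGC-CBP30, 4120 with CPI203 and 6729 for the difference between the compounds (7416 without the block), and the ion transport genes called stayed at 12 and 18. With crossed numbers, added after seeing the data, the counts were 1085, 4115 and 7731.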
